A study of Homo sapiens with 3 samples.

Results

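Complexes I, III and IV are the proton-pumping enzymes of the mitochondrial respiratory chain, and their nuclear-encoded subunit genes were followed here through knockdown of AKT1 in a human tongue carcinoma line. The genes were taken by symbol from the array's gene annotation: NDUFA, NDUFB, NDUFC, NDUFS and NDUFV genes of complex I, UQCR genes of complex III, and COX4 to COX8 genes of complex IV, without NDUFAF assembly factors or pseudogenes. This gave 61 of the 18239 genes on the array with a probe set of their own: 36 of complex I, 8 of complex III and 17 of complex IV. A probe set is a group of short probes read as one value, and the brightest one stood for its gene. It counts as a gene's own where the annotation lists that gene alone, and matches of its probes to other genes were not checked. Of the 61 genes, 56 had a mean log2 value at or above 3.93, the 30th percentile of all genes, and were among the 12779 genes tested.

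The cells, called GFP-SAS in the labels and derived from a tongue carcinoma, received small interfering RNA (siRNA) at 10 nM for 24 h. The control library had the non-targeting siRNA siNT, and siAkt1-22 and siAkt1-58, both directed at AKT1, were used in 1 library each. All 3 libraries thus came from siRNA-treated cells of the same line, and no untreated library was analysed here. The labels do not say whether the GFP-SAS culture is a single clone or whether the libraries came from separate cultures. P-values therefore measure only the spread between these samples, which may be technical. That spread is the gap between the siAkt1 libraries, as is each SD given here. Those libraries had different siRNAs, so the gap also holds any difference between siAkt1-22 and siAkt1-58. None of it comes from the lone siNT library.

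Complex I takes electrons from NADH and passes them through a flavin and a chain of iron-sulfur clusters to ubiquinone. Complex III passes them on to cytochrome c, and complex IV uses them to reduce oxygen to water. Each complex joins a few catalytic core subunits to many small accessory ones, and some of the core is encoded by mitochondrial DNA, which the genes here do not include. Carcinoma cells often draw ATP from this chain and from glycolysis side by side.

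AKT1, the kinase that both siRNAs target, read 6.75 on the log2 scale after siNT, 3.67 after siAkt1-22 and 3.47 after siAkt1-58. The epithelial markers EPCAM, CDH1, SFN and KRT5 were between 9.16 and 11.67 in every library, while KRT14 was below the filter level in all of them. Of the markers of other cell types, 4 of 5 fibroblast genes and 4 of 5 immune cell genes were below the filter level. PECAM1 and VWF, 2 of 3 endothelial genes, and DES, ACTA1 and CKM, 3 of 5 skeletal muscle genes, were at or above it, between 3.93 and 5.54. ACTA1 read 5.54, 4.57 and 5.44, and the others of these were equal in all libraries. Across 24 probe sets for spiked poly-A controls there was a median difference from siNT of -0.56 with siAkt1-22 (from -1.25 to -0.35) and -0.01 with siAkt1-58. The GAPDH control probe sets for the 3' and 5' ends of the transcript differed by -0.04 to -0.01 within each library.

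Most of the subunit genes had slightly higher values after either siRNA against AKT1. Over the 56 genes tested, the median log2 difference from siNT was 0.31 with siAkt1-22 (quartiles 0.12 and 0.43) and 0.16 with siAkt1-58 (quartiles 0.04 and 0.29). Over all 12779 genes tested it was 0 with either siRNA, with quartiles of -0.16 and 0.29 and of -0.14 and 0.19. In all, 41 of the 56 genes were above siNT with both siRNAs, where 30.9% of all genes tested were, and 1 gene, NDUFS5, was below siNT with both, where 21.4% of all genes were. Taken singly, 49 of the 56 were above siNT with siAkt1-22 (48.5% of all genes) and 47 with siAkt1-58 (45.6%), and 37 were higher with siAkt1-22 than with siAkt1-58 (46.6%). Genes equal to siNT with either siRNA cannot be above or below it with both. Such ties were 2826 of the 12779 genes tested and 1 of the 56. Both differences use the same siNT library, so these counts describe 3 libraries and carry no test.

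The differences were small. None of the 56 genes was at least 2-fold higher with both siRNAs (0.736% of all genes tested were) or at least 2-fold lower with both (1.17%). With siAkt1-22 alone, NDUFA2 and NDUFA7 were at least 2-fold higher (4.40% of all genes) and NDUFV3 at least 2-fold lower (5.97%). With siAkt1-58 alone, NDUFB5 was at least 2-fold lower (3.58%) and 0 genes were at least 2-fold higher (1.54%). At 1.5-fold, NDUFA2 and NDUFA7 were higher with both siRNAs (3.20% of all genes) and 0 genes lower with both (3.58%). Taken alone, siAkt1-22 had 5 genes 1.5-fold above siNT (12.3%) and 2 below it (12.0%). For siAkt1-58 these counts were 2 (6.58%) and 3 (8.74%). The siAkt1 libraries were then compared together with siNT by limma, which passed 0 of the 56 genes and 0 of all genes tested (0.00%). At an unadjusted p under 0.05 it held 4 of the 56, COX6B1, COX7B, COX7A2 and UQCRHL, beside 7.47% of all genes. The lowest limma adjusted p among the subunit genes was 0.607, for COX6B1. The fit had 1 residual degree of freedom, and the lone siNT library was assumed to vary like the siAkt1 libraries. AKT1 itself, at -3.08 with siAkt1-22 and -3.28 with siAkt1-58, did not pass. The lack of passing genes therefore does not show that the subunit genes were unchanged.

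Most subunit genes have bright probe sets on this array, 46 of the 61 with a mean past the 90th percentile of all genes. Among the 1824 genes of that brightness, a filter chosen after the data were seen, 36 of 46 subunit genes and 35.3% of all genes were above siNT with both siRNAs. Median centring of the arrays left 40 of 56 subunit genes above siNT with both siRNAs and 1 below, but moved the split over all genes from 30.9% above and 21.4% below to 29.2% above and 38.4% below. A loess correction gave 35 of 56 subunit genes and 26.1% of all genes above siNT with both, with 42.1% of all genes below, and quantile normalization gave 42 of 56 and 41.8% above, with 21.9% below. The poly-A controls were lower in the siAkt1-22 library in which the subunit median was 0.31, and their part in that median was not tested.

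**Figure D1:**
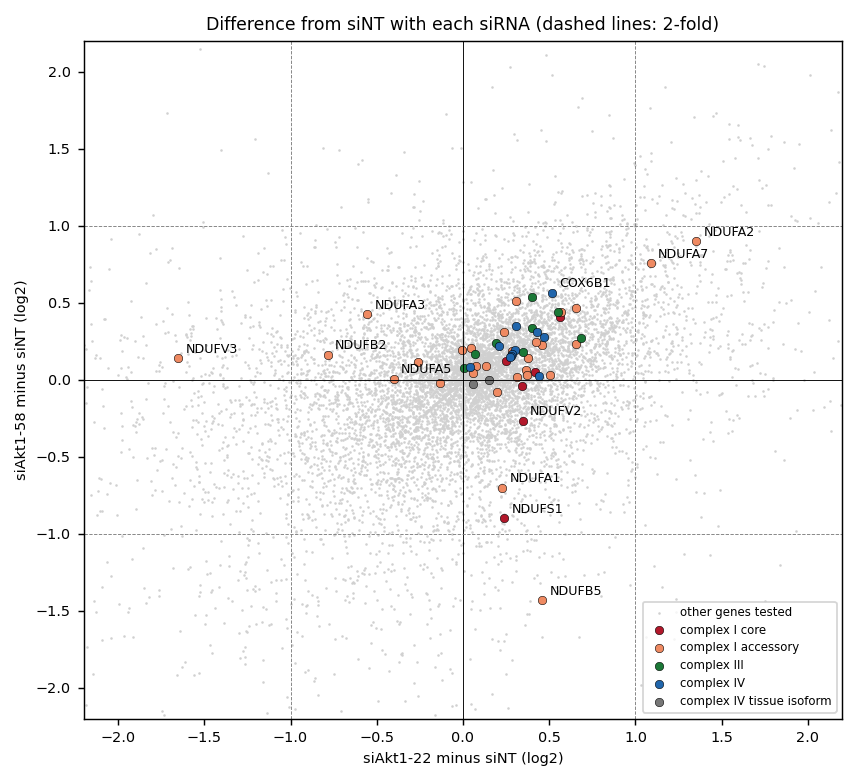
Log2 difference from siNT with siAkt1-22 (horizontal axis) and with siAkt1-58 (vertical axis) for the 56 subunit genes tested (coloured by complex) and the other genes tested (grey); 158 genes beyond 2.2 on either axis are not drawn, and dashed lines mark 2-fold. The coloured complex III and IV genes lie above 0 on both axes apart from the muscle and testis forms of complex IV. CYC1 of complex III falls outside the symbols chosen, is drawn in grey and lies at -0.11 and -0.15. UQCRC2 leaves the genes above 0 on both axes after median centring, UQCRC2 and COX7C after a loess correction, and UQCRC2 and UQCRB with averaged probe sets. The coloured genes that stand away from the rest belong to complex I.

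Upstream sequences of 6 of these genes are shown because they hold the binding motifs long associated with respiratory chain genes, those of nuclear respiratory factor 1 (NRF1) and of the ETS factor GABP, and because the genes differ in how they compared with siNT. COX6B1, UQCR11 and NDUFA9 were above siNT with both siRNAs, NDUFS1 and NDUFA1 were below it with siAkt1-58 only, and NDUFA3 was below it with siAkt1-22 only. The sequences are RefSeq's (build GRCh38.p14), 5′ to 3′ on the gene's strand, 120 bases each within the 250 bases upstream of an annotated start, with motif matches in capitals. They lie at chr19:35648203-35648322 (plus strand) for COX6B1, chr19:1605463-1605582 (minus) for UQCR11, chr12:4648994-4649113 (plus) for NDUFA9, chr2:206159497-206159616 (minus) for NDUFS1, chrX:119871712-119871831 (plus) for NDUFA1 and chr19:54102672-54102791 (plus) for NDUFA3. The NDUFS1 stretch ends 53 bases and the NDUFA3 stretch 64 bases upstream of the start, and the others end next to it.
COX6B1: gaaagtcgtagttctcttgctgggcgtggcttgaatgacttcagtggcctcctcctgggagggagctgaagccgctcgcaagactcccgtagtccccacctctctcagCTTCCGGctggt
UQCR11: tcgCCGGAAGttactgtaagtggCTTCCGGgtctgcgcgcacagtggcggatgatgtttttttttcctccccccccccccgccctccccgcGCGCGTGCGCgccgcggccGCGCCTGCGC
NDUFA9: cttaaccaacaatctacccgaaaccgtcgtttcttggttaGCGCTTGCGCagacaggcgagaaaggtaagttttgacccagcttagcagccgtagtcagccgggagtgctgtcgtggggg
NDUFS1: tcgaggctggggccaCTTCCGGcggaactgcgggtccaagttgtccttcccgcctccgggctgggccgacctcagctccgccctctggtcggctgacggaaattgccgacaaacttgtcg
NDUFA1: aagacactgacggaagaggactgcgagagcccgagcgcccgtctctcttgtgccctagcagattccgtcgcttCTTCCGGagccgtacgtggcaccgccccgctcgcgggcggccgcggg
NDUFA3: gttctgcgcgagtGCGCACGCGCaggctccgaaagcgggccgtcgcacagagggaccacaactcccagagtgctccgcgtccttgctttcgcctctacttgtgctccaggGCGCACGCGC

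The motifs searched, on both strands of the 250 upstream bases, were the NRF1 motif of 10 letters and CCGGAAG for GABP. The NRF1 motif has 1 open position, and the capitals in the NDUFA9, NDUFA3 and UQCR11 sequences show matches on either strand. The motifs overlapped each other in 2 of the 35116 windows of the table. Of the 52 subunit genes with a window, 8 held the NRF1 letters and 12 the GABP letters, and UQCR11 alone held both. Over all 35116 windows, 5.07% held the NRF1 letters and 8.52% the GABP letters; some genes have several windows, and the 61 windows of the subunit genes held them in 8 and 12 cases. Among genes tested, the 7 with the NRF1 letters had median differences of 0.43 with siAkt1-22 and 0.27 with siAkt1-58, the 11 with the GABP letters 0.34 and 0.18, and the 32 with neither 0.28 and 0.13. Genes above siNT with both siRNAs made up 5 of the 7, 8 of the 11 and 25 of the 32. Each motif thus occurred upstream of genes above siNT with both siRNAs and of genes that were not. A match of letters does not show that a factor binds there.

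Of the nuclear genes for the catalytic core of complex I, 6 were tested. All 6 were above siNT with siAkt1-22, between 0.24 and 0.56, whereas with siAkt1-58 they ranged from -0.90 to 0.41. NDUFS7, which carries the iron-sulfur cluster next to the ubiquinone site, read 8.49 on the log2 scale after siNT, 9.05 after siAkt1-22 and 8.90 after siAkt1-58. Both siAkt1 libraries lay above the control, with a mean difference of 0.48 ± 0.11 (SD, n = 2) and a limma adjusted p of 0.707. NDUFS8, another iron-sulfur subunit, read 9.40 with siNT, 9.66 with siAkt1-22 and 9.53 with siAkt1-58. NDUFV1, which binds NADH and the flavin, read 8.38, 8.80 and 8.43 in the same order, so that only siAkt1-22 stood clear of the control.

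The other core genes, NDUFS1, NDUFV2 and NDUFS3, were above siNT with siAkt1-22 and below it with siAkt1-58. NDUFS1 encodes the large iron-sulfur subunit of the NADH-oxidising arm. It read 8.43 after siNT, 8.67 after siAkt1-22 and 7.53 after siAkt1-58. The siAkt1-58 library was the low one, with differences from siNT of 0.24 with siAkt1-22 and -0.90 with siAkt1-58. All 5 NDUFS1 probe sets showed this, from 0.21 to 0.45 with siAkt1-22 and from -1.12 to -0.83 with siAkt1-58. NDUFV2, the iron-sulfur partner of NDUFV1, read 9.56, 9.91 and 9.30, and NDUFS3 read 9.16, 9.50 and 9.12. The difference of NDUFS3 with siAkt1-58 was only -0.04. Sides of siNT were counted at any size of difference, here and in the other counts.

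The accessory subunits of complex I held both the highest and the lowest differences. NDUFA2, an accessory subunit of the NADH-oxidising arm, read 8.90 after siNT, 10.25 after siAkt1-22 and 9.80 after siAkt1-58. That put it 2.55-fold above siNT with siAkt1-22 and 1.87-fold with siAkt1-58, a mean log2 difference of 1.13 ± 0.32 (SD, n = 2; limma adjusted p = 0.751). NDUFA7, another accessory subunit of the arm that projects into the matrix, read 8.84, 9.93 and 9.59, a mean difference of 0.92 ± 0.24 (SD, n = 2; limma adjusted p = 0.725). Each has a single probe set of its own, so neither value could be set against another. NDUFA9, near the junction of the arms, read 8.51, 9.16 and 8.98, and NDUFB1, a small membrane-arm subunit, 10.12, 10.69 and 10.56. In these 4 genes both siAkt1 libraries were above the control, and siAkt1-22 was the higher one.

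The low genes differed between the siRNAs. With siAkt1-22 the lowest was NDUFV3, an accessory subunit beside the flavin-binding core, reading 7.72 after siNT, 6.07 after siAkt1-22 and 7.86 after siAkt1-58. Its siAkt1-22 value was thus 3.14-fold below the control, and its dimmer probe sets gave -1.23 and -0.97 with siAkt1-22 against 0.16 and -0.01 with siAkt1-58. NDUFB2, a membrane-arm subunit with 1 probe set, read 10.37, 9.58 and 10.53. NDUFA3, a small membrane-bound subunit, read 9.43, 8.88 and 9.86, so the siAkt1-22 library was below the control and the siAkt1-58 library above it. The next 2 probe sets of NDUFA3 gave -0.51 and -0.56 with siAkt1-22 and 0.55 and 0.44 with siAkt1-58, and its dim last one was equal in all libraries. NDUFA5, of the matrix arm, read 8.33, 7.93 and 8.34, and NDUFS4, of the same arm, 9.75, 9.49 and 9.87.

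With siAkt1-58 the lowest was NDUFB5, a membrane-arm subunit, reading 10.06 after siNT, 10.52 after siAkt1-22 and 8.63 after siAkt1-58. The siAkt1-58 value was 2.70-fold below the control and the siAkt1-22 value 1.37-fold above it, and its other probe set gave 0.50 and -1.55. NDUFA1, a small membrane-arm subunit encoded on the X chromosome, read 11.15, 11.38 and 10.45. Its 3 probe sets lay between 0.17 and 0.23 with siAkt1-22 and between -0.78 and -0.70 with siAkt1-58. NDUFV3, NDUFB5 and NDUFS1 were the 3 subunit genes at least 2-fold apart between the siRNAs, 3 of 56 beside 10.3% of all genes tested. NDUFB5 and NDUFS1 were higher with siAkt1-22 (5.00% of all genes) and NDUFV3 was lower with it (5.28%). There is 1 library per siRNA, so the difference between the siRNAs could not be tested.

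**Figure D2:**
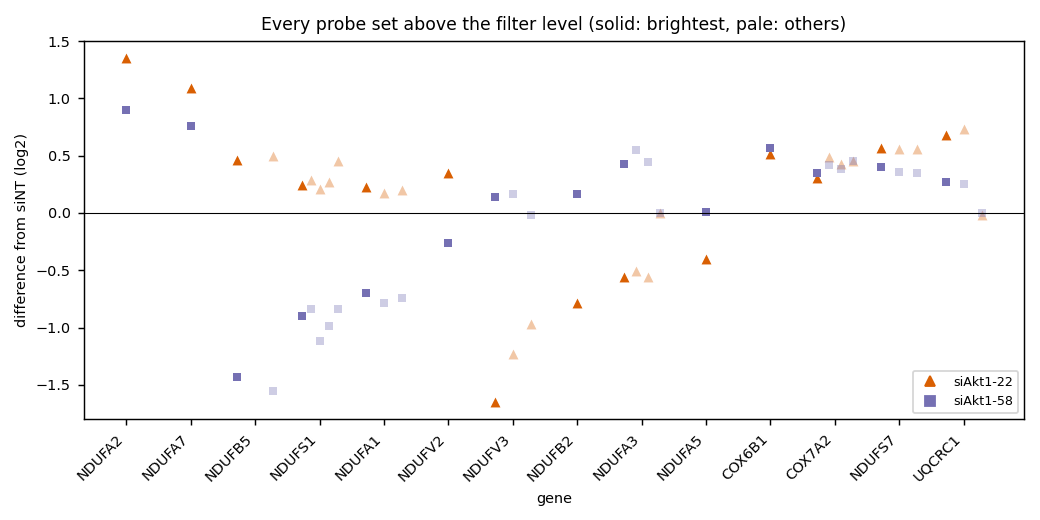
Log2 difference from siNT (vertical axis) with siAkt1-22 (triangles) and siAkt1-58 (squares) for every probe set above the filter level of 14 subunit genes; solid symbols mark the brightest probe set of a gene and pale ones the others. The 5 probe sets of NDUFS1, the 3 of NDUFA1 and the 2 of NDUFB5 all lie below 0 with siAkt1-58 and above it with siAkt1-22, and the 3 of NDUFV3 lie below -0.9 with siAkt1-22.

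In complex I as a whole, 22 of 35 genes tested were above siNT with both siRNAs, 1 below with both, 6 above with siAkt1-22 and below with siAkt1-58, and 6 the other way round. All genes tested gave 13.5% and 12.1% for those mixed patterns. When a loess curve over brightness was subtracted, NDUFA8, NDUFA10, NDUFB8 and NDUFC2 also left the genes above siNT with both siRNAs, and NDUFC2 did so with averaged probe sets. The remaining accessory genes had small differences. NDUFA11, NDUFB3, NDUFB4, NDUFB7, NDUFB10, NDUFB11 and NDUFC1, mostly of the membrane arm, had mean differences between 0.24 (NDUFB3) and 0.44 (NDUFB10). NDUFB6 (0.50 and 0.03), NDUFC2 (0.31 and 0.02) and NDUFAB1 (0.36 and 0.06) stood above siNT mainly with siAkt1-22; NDUFAB1 is also the acyl carrier protein of mitochondrial fatty acid synthesis. NDUFA6, NDUFA8, NDUFA12, NDUFB8, NDUFB9 and NDUFS6 had mean differences between 0.05 (NDUFA8) and 0.13 (NDUFB8), and NDUFS5 had -0.08 ± 0.08 (SD, n = 2). NDUFB9, in the membrane arm, had the brightest probe set of complex I and read 11.98, 12.18 and 11.90.

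Probe sets left out because they list several genes or identifiers cover NDUFA13, NDUFB8 and NDUFA10. NDUFA13, an accessory subunit also known as GRIM-19, has only dim probe sets of its own (3.47, 3.65 and 3.47 in the brightest) and was not tested. Its brightest probe set in common with YJEFN3 read 9.69 with siNT, 9.79 with siAkt1-22 and 10.07 with siAkt1-58. NDUFB8 read 11.09, 11.13 and 11.29, and its probe set in common with SEC31B 10.84, 11.00 and 11.09. NDUFA10 read 7.57, 7.94 and 7.61, and a brighter probe set listed under a pair of NDUFA10 identifiers read 8.99, 9.37 and 9.10. In each case the added probe set lay above siNT with both siRNAs.

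Of complex III, the 8 UQCR genes with a probe set of their own all had higher values than siNT with both siRNAs. Their medians were 0.37 with siAkt1-22 and 0.26 with siAkt1-58. UQCRC2 dropped below siNT with siAkt1-22 after median centring, after a loess correction and with averaged probe sets. UQCRB dropped below siNT with siAkt1-58 with averaged probe sets. UQCRC1, a core protein that faces the matrix, read 9.62 after siNT, 10.31 after siAkt1-22 and 9.89 after siAkt1-58. A second probe set gave 0.74 and 0.26, close to the 0.68 and 0.27 of the first, and a dim further one gave -0.02 and 0. UQCRC2, the other core protein, read 9.47, 9.47 and 9.55, so that its libraries barely differed. UQCR11, a small subunit of the complex, read 10.24, 10.79 and 10.68, a mean difference of 0.49 ± 0.08 (SD, n = 2; limma adjusted p = 0.663). UQCR10 (0.40 and 0.54) had similar values, while UQCRB (0.19 and 0.24) and UQCRQ (0.07 and 0.16) stood closer to the control. The dimmer probe sets of UQCRB gave 0.07, 0.09 and 0.05 with siAkt1-22 but -0.01, -0.09 and -0.20 with siAkt1-58. Those of UQCRQ gave 0.57 and 0.13 with siAkt1-22, and 0.22 and 0 with siAkt1-58.

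UQCRH, the hinge protein that helps dock cytochrome c, read 10.82, 11.17 and 11.00, and UQCRHL 7.33, 7.74 and 7.67. UQCRHL is a near-identical relative of UQCRH, and probes may read both, so its value is uncertain as a measure of that gene. CYC1, the cytochrome c1 subunit of the same complex, falls outside the symbols chosen and read 10.70, 10.59 and 10.55. CYC1 was thus below the control in both siAkt1 libraries, by -0.11 and -0.15, while the 8 UQCR genes were above it. The Rieske protein gene UQCRFS1, for which no probe set of its own was found, is not among those 8, so they do not cover the whole complex.

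The 11 common subunit genes of complex IV, tested with the same siNT library, were all above siNT with both siRNAs, with medians of 0.30 and 0.19; COX7C lost this with siAkt1-22 after a loess correction. COX6B1, which sits on the side of the enzyme that meets cytochrome c, read 10.37 after siNT, 10.89 after siAkt1-22 and 10.94 after siAkt1-58. The siAkt1 libraries were close to each other and above the control, a mean difference of 0.54 ± 0.03 (SD, n = 2; limma adjusted p = 0.607). COX7A2, a small membrane subunit, read 11.09, 11.40 and 11.44. Its 4 probe sets above the filter level gave 0.31 to 0.49 with siAkt1-22 and 0.35 to 0.46 with siAkt1-58.

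COX8A, another small membrane subunit, read 11.00, 11.43 and 11.31, and COX5B, on the matrix side, 10.11, 10.58 and 10.39. COX5A, the neighbour of COX5B, read 10.42, 10.86 and 10.44, so only siAkt1-22 stood clear of the control. COX4I1, through which ATP is known to regulate the enzyme, read 10.51, 10.79 and 10.66, and COX7B 11.29, 11.50 and 11.51. COX6A1 (0.27 and 0.15), COX6C (0.28 and 0.16) and COX7A2L (0.30 and 0.19), a factor that joins complexes III and IV, had like differences. COX6A1 read 12.19, 12.46 and 12.33. COX7C had the smallest mean difference, at 12.24, 12.28 and 12.32. COXFA4, the subunit long called NDUFA4 and listed under its newer symbol, read 10.23 with siNT, 10.46 with siAkt1-22 and 10.61 with siAkt1-58.

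The forms of complex IV subunits known from particular tissues gave only dim values. COX4I2 (lung), COX7A1 (heart and skeletal muscle), COX7B2 and COX8C (testis) were below the filter level, between 2.83 and 3.38 in every library. COX6A2, the heart and skeletal muscle form, read 4.67, 4.73 and 4.64, and COX6B2, the testis form, 4.87, 5.02 and 4.87. Of these 6 genes 2 were therefore tested, and neither was above siNT with both siRNAs. COXFA4L2, the hypoxia-linked relative of COXFA4, read 3.42 in all 3 libraries. COXFA4L3, also dim with a mean of 4.22, stood at 1.43 with siAkt1-22 and -0.34 with siAkt1-58. At such levels small differences cannot be read.

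**Figure D3:**
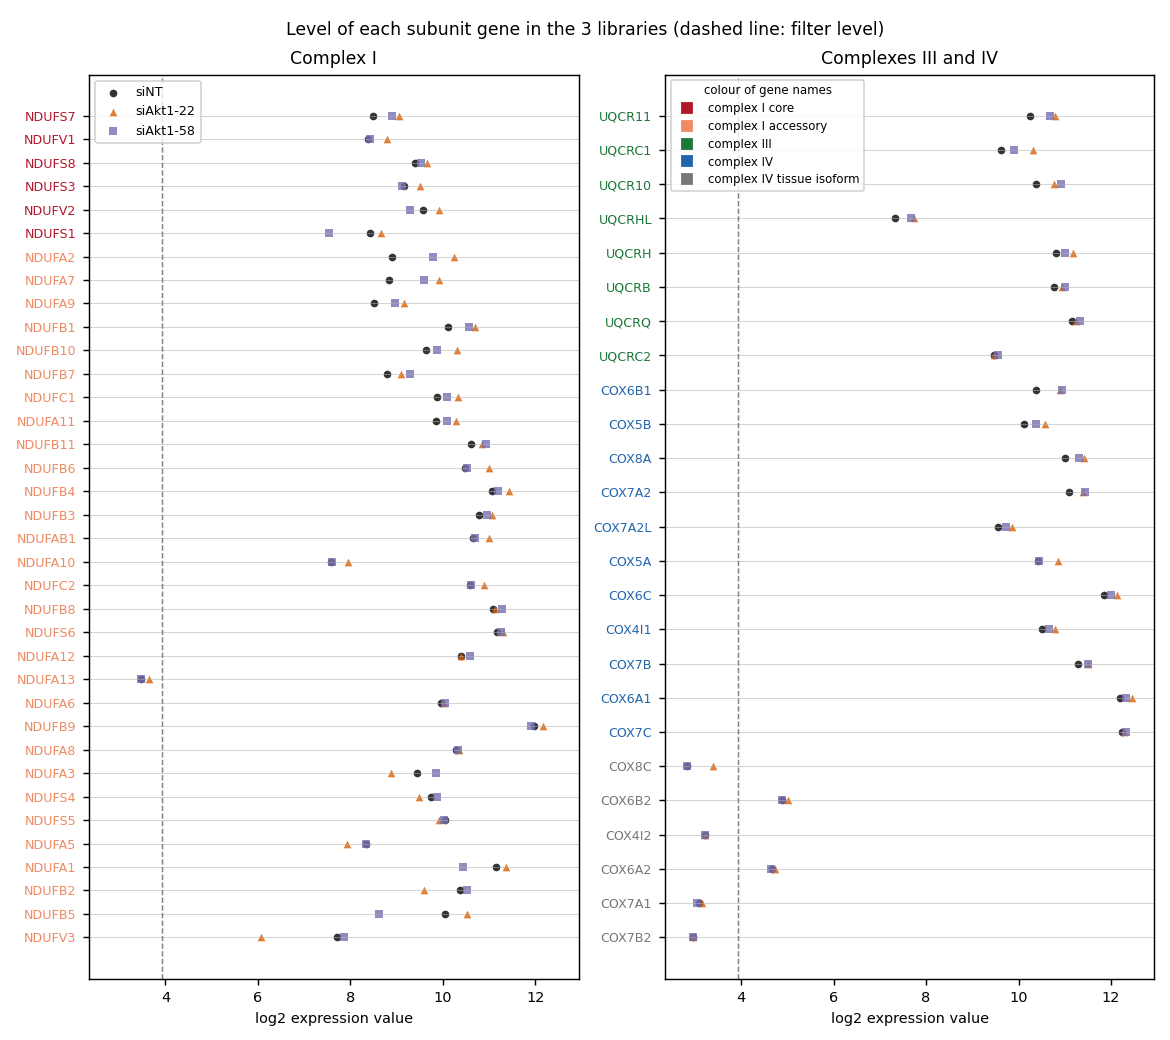
Log2 expression value (horizontal axis) of each of the 61 subunit genes in the siNT (circles), siAkt1-22 (triangles) and siAkt1-58 (squares) libraries, ordered within each group by mean difference from siNT; the dashed line is the filter level of 3.93. Levels of different genes come from different probes and cannot be compared; within a gene, both siAkt1 symbols lie right of the circle for the complex III genes and the common complex IV genes, by as little as 0.01 for UQCRC2 (UQCRC2 changes side after median centring, a loess correction or averaging of probe sets, UQCRB after averaging and COX7C after loess).

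Probe sets of one gene give a measure of technical spread. Of the subunit genes, 28 had at least 2 probe sets above the filter level, and the range of the difference between the probe sets of a gene had a median of 0.14 with siAkt1-22 and 0.12 with siAkt1-58. In 15 of the 28 genes that range was at most 0.2 with both siRNAs. The widest ranges were 0.90 with siAkt1-22, for NDUFC2, and 0.55 with siAkt1-58, for NDUFA3, and both came from dim extra probe sets. This spread leaves out the variation between cultures.

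Other mitochondrial gene lists were counted in the same way, and the shares over all genes tested are again 30.9% above siNT with both siRNAs, 21.4% below with both and 13.5% above with siAkt1-22 but below with siAkt1-58. Of 18 ATP synthase genes, 12 were above siNT with both siRNAs and 0 below with both, with medians of 0.14 and 0.11. The inhibitor ATP5IF1 (0.62 and 0.37) and the stalk subunit ATP5PD (0.57 and 0.30) had the largest shared differences, and the catalytic-core subunit ATP5F1C stood at -0.78 and 0.05. In complex II, which feeds electrons from succinate, the flavoprotein SDHA read 8.85, 9.71 and 8.99, the membrane anchor SDHC 9.58, 10.23 and 9.97, and the other anchor SDHD 9.40, 9.78 and 8.96. Cytochrome c itself, CYCS, read 11.12 with siNT, 10.60 with siAkt1-22 and 10.68 with siAkt1-58, below the control in both siAkt1 libraries, as was CYC1.

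Genes that build the complexes were read the same way. Of 19 complex I assembly genes, 6 were above siNT with both and 9 above with siAkt1-22 but below with siAkt1-58, with medians of 0.37 and -0.09. TIMMDC1 (0.94 and 0.44) was the highest and NDUFAF4 (-1.27 and -0.59) the lowest by the smaller of the differences. Of 8 complex III assembly genes tested, 4 were above siNT with both, TTC19 (1.03 and 0.64) among them. Of 24 complex IV assembly genes, 12 were above siNT with both, led by COA5 (1.26 and 0.96) and the membrane insertase OXA1L (0.94 and 0.73), while COA7 (-0.19 and -0.34) was below. The differences between these lists and the subunits were not tested.

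The mitochondrial ribosome, which makes the subunits encoded in mitochondrial DNA, had 76 genes tested, 17 above siNT with both siRNAs and 24 below with both. Its medians were 0.09 with siAkt1-22 and -0.13 with siAkt1-58, and MRPL23 (0.95 and 0.98) and MRPL35 (-0.42 and -0.64) stood at its ends by the smaller of the differences. Of 18 tested regulators of mitochondrial gene expression, 6 were above siNT with both and 8 below. PPRC1, a coactivator of the PGC-1 family, read 7.66, 6.99 and 6.99. TFAM, which packages mitochondrial DNA, read 9.45 with siNT, 8.89 with siAkt1-22 and 8.11 with siAkt1-58, and GABPA, the DNA-binding part of GABP, 7.54, 6.16 and 7.02. On the other side were POLG2, the accessory subunit of the mitochondrial DNA polymerase, at 1.05 and 0.41, and ESRRA, a nuclear receptor that acts with PGC-1 coactivators, at 0.36 and 0.37. NRF1 was dim at 4.71, 4.58 and 4.45. No gene of these lists passed limma either, since no gene tested did.

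**Figure D4:**
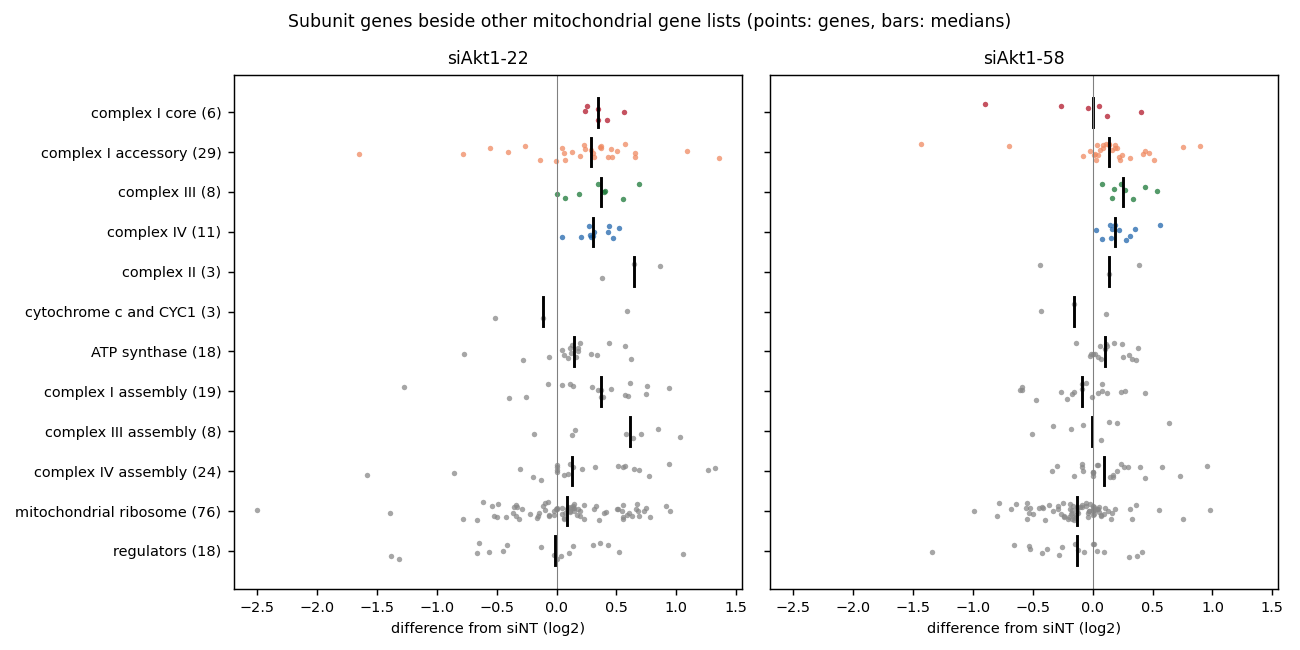
Log2 difference from siNT (horizontal axes) with siAkt1-22 (left) and siAkt1-58 (right) for the subunit genes by complex and for other mitochondrial gene lists; each point is a gene, bars are list medians, and numbers of genes tested stand in brackets. The UQCR genes of complex III and the common complex IV genes have medians of 0.37 and 0.30 with siAkt1-22 and of 0.26 and 0.19 with siAkt1-58. The mitochondrial ribosome has 0.09 and -0.13. The tested tissue forms of complex IV, COX6A2 and COX6B2, are not drawn.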

How the data were processed

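Per the labels' protocols, 10 ng of RNA from each of 3 samples was labelled from the 3' end and read on Affymetrix arrays. The authors deposited log2 expression values per probe set; the submitters' processing notes name RMA, without a version or settings. The values, from 2.20 to 13.4, have the range of a log2 scale. RMA equalises the arrays and often returns tied values: 11.1% of genes tested were equal in all 3 libraries.

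Of 49386 probe sets, 45253 carried 1 gene, 1327 several and 2713 none listed, and 93 were controls. Symbols were updated by Entrez identifier for 45172 of the 45253. The brightest one-gene probe set stood for a gene. Both siAkt1 libraries were set against siNT with limma 3.58.1 under R 4.3.3 (functions lmFit and eBayes). Its two-sided p-values were adjusted by Benjamini-Hochberg across 12779 genes, with a threshold of 0.05. Simulated libraries served to check the differences and size counts only, not the p-values. They had equal changes in both siAkt1 libraries, unlike the real ones. The number of arrays limits the precision. Size counts used 2-fold. Named genes were those 2-fold from siNT with either siRNA, the 6 lowest and 6 highest mean differences, the widest between siRNAs, the brightest, isoform pairs and the ends of each other list; other subunit genes were named to account for all. The subunit genes and lists were chosen with earlier results of these data known. The alternatives were other probe set summaries, scalings, filters, a 1.5-fold limit, an eBayes trend and each siAkt1 library left out.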

Additional observations from a re-analysis of the deposited data

How the results depend on the processing

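Limma passed 0 subunit genes under every alternative fitted. In the main fit the targeted gene AKT1 did not pass either, so the lack of passing genes does not show that the subunit genes were unchanged. Under every alternative the median differences stayed above 0, from 0.24 to 0.31 with siAkt1-22 and from 0.13 to 0.17 with siAkt1-58. Genes above siNT with both siRNAs numbered 35 (loess) to 42 of those tested by gene, beside 26.1% to 41.8% of all genes. With each probe set as its own unit, 62 of 106 were above siNT with both (28.3% of all probe sets tested) and 2 below (21.9%), 64 on the same side. In that setting 12 probe sets were at least 2-fold apart between the siRNAs, several of them from the same gene. The share over all probe sets was not counted. Genes below siNT with both numbered 0 with averaged probe sets (23% of all genes), 0 with quantile normalization (21.9%) and 2 with loess (42.1%). The main setting had 1 (21.4%). A 1.5-fold limit gave 2 genes higher with both (NDUFA2 and NDUFA7, beside 3.20% of all genes) and 7 apart between the siRNAs. The filter at the 90th percentile left 1 apart. For these numbers of genes apart, the share over all genes was not counted. Without siAkt1 replicate 1 (siAkt1-22), 8 of the 56 genes were below siNT, beside 4727 of the 12779 genes tested. Of the 56, 1 was at least 2-fold lower (3.58% of all genes) and 0 at least 2-fold higher (1.54%). Without replicate 2 (siAkt1-58), 7 of the 56 were below siNT, beside 4558 of the 12779. At least 2-fold lower was 1 gene (5.97% of all genes), and at least 2-fold higher were 2 (4.40%). Each such count rests on 1 library. No limma fit was possible without a siAkt1 library, as no residual degree of freedom remains. No paired analysis was possible because siNT has a single library, and the siAkt1 numbers 1 and 2 only name libraries.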
